A study of Mus musculus with 18 samples.

Results

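The 9 genes described here mark or act in neural ectoderm, the embryonic layer that forms the brain and spinal cord. They are Sox1, Sox3, Sox4, Sox21, Pax6, Ncam1, Fabp7, Mtap2 (the older symbol of Map2) and Nes, chosen by symbol from the 25909 genes of the deposited tables. All 9 passed the filter on low counts that left 12856 genes for testing.

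RNA was measured in mouse SGET cells (strain label B6CBA/129), an embryonic stem cell line with fluorescent reporters of Stella and Esg1, kept before differentiation in 2i with LIF. Epiblast-like cells (EpiLC) were made with activin A and bFGF on fibronectin and were not sorted. Primordial germ cell-like cells (PGCLC), the culture counterpart of early germ cells, were made from EpiLC with BMP4, LIF, SCF, BMP8a and EGF and were sorted as Stella-reporter positive and Esg1-reporter low (SG+ETlow) at day 3 or day 5. Each stage was collected from WT cells and from cells labelled KO for Esrrb, a nuclear receptor of the naive pluripotency network, giving 6 groups of 3 libraries. The KO libraries of each group come from lines named A5, B1 and A2. The WT libraries carry only the numbers 1 to 3, and nothing says that these were separate cultures, so their spread may be partly technical. The p-values rest on a spread shared by all 6 groups, which pools WT libraries and KO lines. These differed: between 2 libraries of a group, the chi-square of counts per degree of freedom was 1.135 to 1.875 in WT and 4.118 to 36.03 in KO.

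Neural ectoderm arises from epiblast when BMP signalling is low. SOXB1 proteins (SOX1, SOX2, SOX3) keep cells in the neural progenitor state, SOXB2 proteins such as SOX21 repress SOXB1 targets and favour differentiation, and SOXC proteins such as SOX4 act later in neuronal maturation. Forming germ cells, by contrast, are known to shut down the somatic programme of the epiblast while they restore pluripotency genes. Several of the 9 genes, Sox3, Sox4 and Nes among them, are also expressed in epiblast, so their RNA alone does not mark a neural cell.

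Library totals ran from 3030797 to 5282191 counts (median 4243289.5). Levels are CPM, counts scaled to the library total and to TMM factors, which correct for composition. The labels do not give the deleted part of Esrrb, so its counts check the label only in part. Esrrb had 2434 to 3125 counts in WT PGCLC and 359 to 933 in KO PGCLC. In EpiLC it had 79 to 127 counts in WT, 29 in KO A5, 18 in KO B1 and 167 in the library labelled KO A2, which goes against the KO part of its label. The line name is shared with its PGCLC libraries in 1 trait, the median log2 ratio of chromosome 1 genes to the WT mean. This was 0.28 in that EpiLC library, 0.29 and 0.31 in the A2 PGCLC libraries and 0.043 and 0.024 in EpiLC KO A5 and B1. The same EpiLC library stood apart in markers of other cells: 10 mesenchyme markers summed to 7594 CPM there, against 548 to 769.9 CPM in the other KO libraries and 614.7 to 659.8 CPM in WT, and 10 trophoblast markers to 223.6 CPM, against 17.14 to 37.97 and 16.17 to 19.66 CPM. Formative epiblast markers (11 genes) summed to 5797 to 5914 CPM in WT EpiLC, 3946 and 4497 CPM in KO A5 and B1 and 2120 CPM in the library labelled KO A2. Naive pluripotency markers (11 genes, Esrrb among them) summed to 425.5 CPM in that library. They summed to 180.8 and 97.3 CPM in EpiLC KO A5 and B1 and 182.8 to 228.9 CPM in WT EpiLC. In PGCLC, 10 germ cell markers summed to 767.7 to 1200 CPM, against 127.2 to 176.9 CPM in EpiLC. Of 44 neural plate and progenitor transcription factors, 12 had 0 counts in all 3 WT EpiLC libraries, Six3, Hes5, Olig2 and Lhx5 among them.

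RefSeq holds promoters for 7 of the 9 genes (GRCm38.p6), and 3 are shown because their genes, Sox21, Sox4 and Nes, were called between KO and WT at 2 of the 3 stages in the results below. Each is the 250 bases before the annotated start, 5′ to 3′ on the gene's strand. Capitals mark matches, on either strand, to motifs listed after the sequences.
Sox21, chr14:118237031-118237280, minus strand: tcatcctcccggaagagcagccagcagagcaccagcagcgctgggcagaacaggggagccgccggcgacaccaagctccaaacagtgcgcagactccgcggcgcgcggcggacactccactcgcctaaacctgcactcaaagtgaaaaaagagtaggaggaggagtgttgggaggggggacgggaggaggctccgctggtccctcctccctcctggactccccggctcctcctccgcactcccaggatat
Sox4, chr13:28953700-28953949, minus strand: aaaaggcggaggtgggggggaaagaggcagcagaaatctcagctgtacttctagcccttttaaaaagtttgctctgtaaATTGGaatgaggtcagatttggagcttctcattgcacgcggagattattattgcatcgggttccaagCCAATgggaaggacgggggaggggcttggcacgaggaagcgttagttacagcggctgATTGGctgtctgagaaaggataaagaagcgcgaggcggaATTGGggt
Nes, chr3:87970843-87971092, plus strand: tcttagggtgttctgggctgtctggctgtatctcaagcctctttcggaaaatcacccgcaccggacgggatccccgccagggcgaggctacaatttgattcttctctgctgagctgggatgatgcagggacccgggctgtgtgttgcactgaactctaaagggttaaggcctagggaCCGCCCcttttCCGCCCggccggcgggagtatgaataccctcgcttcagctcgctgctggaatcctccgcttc

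The motifs searched, on both strands and chosen with the results known, were the ESRRB motif TCAAGGTCA and its core AAGGTCA (the first contains the second), the octamer ATGCAAAT bound by POU factors, the SOX-type sequence ACAAAG with its variants, of which one was spelled ACAATG, another was spelled AACAAT, as well as the CCAAT box, the TATA box (searched as TATAAA) and the GC box, searched as GGGCGG. The Sox21 window held none of them. The Sox4 window held CCAAT 4 times, and the Nes window held GGGCGG 2 times. Among the 8 member promoters (Pax6 has 2), neither ESRRB motif, the octamer nor TATAAA was found. ACAAAG was found 1 time, 154 bases before the second Pax6 start. Of 32851 RefSeq promoter windows of the same length, 4.08% held AAGGTCA, 0.387% TCAAGGTCA, 16.5% ACAAAG, 33.8% CCAAT and 32.7% GGGCGG. GC content was 65.2% for Sox21, 50.8% for Sox4 and 58.8% for Nes, against a median of 52.4% over all windows. The Sox21 window held 17 CpG sites and the Fabp7 window 4, against a median of 6. A match is a string of letters in a window, not a shown binding site.

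**Figure D1:**
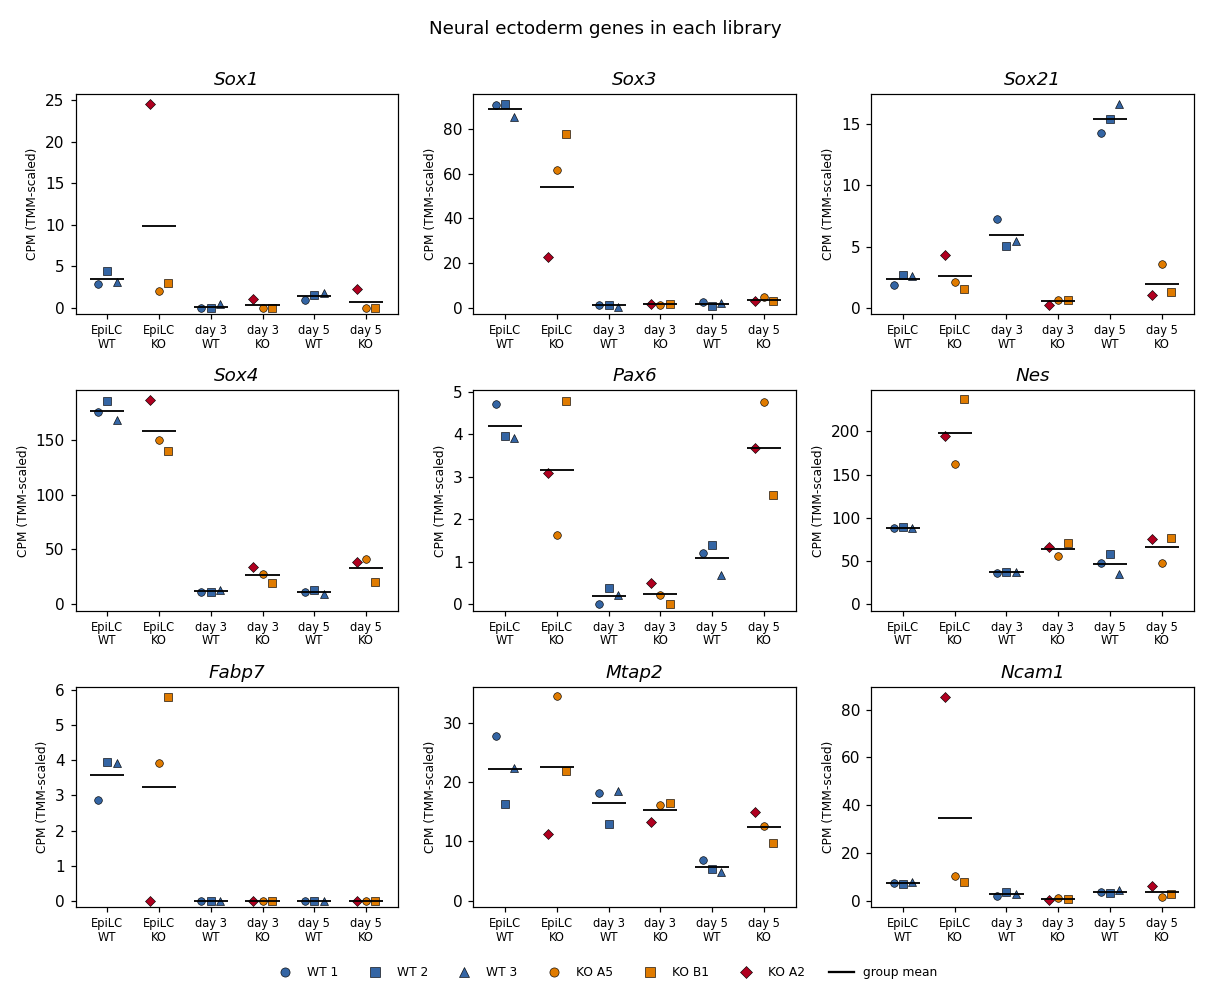
Level of each of the 9 genes in every library (y axis, TMM-scaled CPM, a separate linear scale for each gene; x axis, group). Symbols are single libraries and lines are group means. Sox21 is highest in the WT PGCLC libraries, whereas most other genes are highest in EpiLC, and in EpiLC the library labelled KO A2 (diamond) lies far above the rest for Sox1 and Ncam1.

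At the move from EpiLC to day 3 PGCLC in WT, 6 of the 9 genes fell and Sox21 rose. This step changed much of the transcriptome: 57.5% of all tested genes passed the threshold (28.5% lower and 29.0% higher), a Benjamini-Hochberg adjusted p under 0.05 in edgeR's quasi-likelihood test. Falls were more frequent among the members than over all tested genes, and the median log2 fold change was -3.85, against 0.0001. The members were chosen with earlier results of these data known, so their count carries no test. Fabp7 and Sox1 also passed the filter on low counts only through their EpiLC libraries, which favoured a fall in advance in both genotypes. The account that follows is by gene. In KO 8 of 9 genes fell, all but Mtap2, against 42.0% of all tested genes called (21.4% lower and 20.6% higher). The median in KO was -3.47, against -0.03 over all tested genes. Without line A2 the KO count was also 8, with Mtap2 in (-0.80, adjusted p = 0.00825) and Sox21 out. In that fit 57.2% of all tested genes were called for the KO step. In bulk RNA, fewer cells that express a gene and less of its RNA per cell cannot be told apart.

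Sox3, a SOXB1 factor on the X chromosome (X:60891366-60893430, GRCm38, a single exon), had the highest level per length of the 9 genes in WT EpiLC, 43.1 ± 1.58 CPM per kb (SD, n = 3). The WT EpiLC libraries had 90.7, 91.2 and 85.3 CPM and the WT day 3 libraries 1.45, 1.32 and 0.455 CPM. The ranges were far apart. The log2 fold change (day 3 against EpiLC, with its standard error) was -6.33 ± 0.46 (adjusted p = 3.87e-08) in WT and -5.08 ± 0.46 (adjusted p = 8e-07) in KO. In KO EpiLC, Sox3 had 61.6 CPM in A5, 77.6 in B1 and 22.6 in the library labelled A2, all below the lowest WT library. The difference from WT was -0.72 ± 0.31 and did not pass the threshold (adjusted p = 0.128), although it did without B1 (-1.08, adjusted p = 0.0265). It was -0.36 (adjusted p = 0.236) without the library labelled A2. At day 5 Sox3 had 3.27, 4.75 and 3.01 CPM in KO (16, 20 and 14 counts) against 0.801 to 2.41 in WT (4 to 12 counts). The ranges did not overlap, but the adjusted p was 0.202. Without line A2 that difference was called (1.12, adjusted p = 0.032).

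Sox1, the SOXB1 factor whose onset is used as the first marker of neural commitment (8:12395295-12400126, a single exon), was scarce. WT EpiLC libraries held 11, 18 and 12 counts, which is 2.88 to 4.45 CPM. At day 3 Sox1 had 0, 0 and 2 counts in WT, a level 24.3-fold lower than in EpiLC (95% counting interval 6.31 to 207, counting error only), and the fall passed the threshold (adjusted p = 0.0221). That call was lost without EpiLC WT 2 (adjusted p = 0.0535), day 3 WT 1 (0.0643) or day 3 WT 2 (0.0763). At day 5 WT again had 5, 8 and 8 counts, 10.2-fold above day 3 (2.49 to 89.5), with an adjusted p of 0.44. KO libraries of lines A5 and B1 held 0 counts at both PGCLC times, whereas those of line A2 held 4 and 11 counts. In EpiLC the library labelled KO A2 had 103 counts (24.5 CPM), against 9 and 12 counts in A5 and B1. The KO libraries thus lay on both sides of WT at day 5, and KO against WT did not pass the threshold at any stage. Without line A2, whose 2 remaining day 5 KO libraries held 0 counts, the day 5 difference was called lower (adjusted p = 0.00375). From EpiLC to day 3 Sox1 fell in KO (-4.72 ± 1.24, adjusted p = 0.00648), and the value was -2.78 (adjusted p = 0.0447) without the EpiLC library labelled A2. The median log2 ratio of genes on chromosome 8 to the WT mean was -0.06 to -0.18 in the KO libraries, and its part in the Sox1 values was not tested.

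Sox21 (ENSMUSG00000061517, 14:118233232-118237030, minus strand, a single exon) went the other way in WT. It had 7, 11 and 10 counts in WT EpiLC (1.83, 2.72 and 2.61 CPM), 30, 27 and 24 counts at day 3 (7.24, 5.08 and 5.46 CPM) and 71, 77 and 72 counts at day 5 (14.3, 15.4 and 16.6 CPM). No range overlapped the next. The rise from EpiLC to day 3 was 1.29 ± 0.41 on the log2 scale (adjusted p = 0.0126). Without EpiLC WT 1 it was 1.14 (adjusted p = 0.052). From day 3 to day 5 the difference in WT was 1.38 ± 0.35 and did not pass the threshold (adjusted p = 0.0679), although it passed with DESeq2 (0.0206), with only these 2 groups fitted (9.97e-09) and without line A2 (9.79e-05). The last 2 settings keep the same WT libraries and change the spread, and the spread among WT libraries may be partly technical. With only these 2 groups fitted, 29.1% of all tested genes were called, against 0.77% in the main fit.

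In KO cells the first step of this course differed. The KO EpiLC libraries had 9 counts in A5, 6 in B1 and 18 in the library labelled A2 (2.08, 1.51 and 4.29 CPM), overlapping WT. At day 3 the KO libraries held 3, 2 and 1 counts (0.652, 0.662 and 0.255 CPM), each below every WT library, and at day 5 they held 15, 6 and 5 counts (3.56, 1.29 and 1.02 CPM), again below every WT library. KO against WT was -3.44 ± 0.53 at day 3 (adjusted p = 0.000604), 10.8-fold lower, and -2.99 ± 0.39 at day 5 (adjusted p = 8.68e-05), 7.94-fold lower. Both calls held under all 12 alternatives tried for each, with log2 values from -3.68 to -2.19 and from -3.71 to -2.57. Without line A2 they were -3.12 and -2.68. From EpiLC to day 3 Sox21 fell in KO (-2.28 ± 0.58, adjusted p = 0.00494), but this call was lost without line A2 (-1.43, adjusted p = 0.0718). The step itself differed between KO and WT: the interaction was -3.57 ± 0.71 (adjusted p = 0.00896) and held under all 19 alternatives (highest adjusted p 0.0259). Day 5 KO libraries lay above day 3 KO libraries with no overlap (1.83 ± 0.60), but this did not pass the threshold (adjusted p = 0.21). The interaction with the day 3 to day 5 step was 0.45 ± 0.66 and was not called. A predicted noncoding gene on the opposite strand, Gm4675, shares 18.8% of Sox21's exon bases. It had 21 counts over all 18 libraries, and whether counting used the strand is not given in the sources used here.

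**Figure D2:**
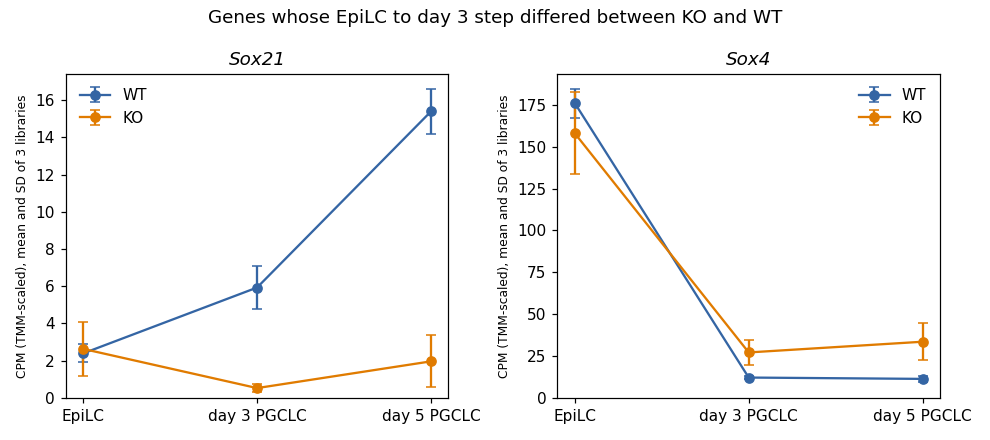
Mean level of Sox21 (left) and Sox4 (right) in WT and KO cells at EpiLC, day 3 and day 5 (y axis, TMM-scaled CPM; bars, SD of 3 libraries). Sox21 goes from 2.39 to 5.93 and 15.4 CPM in WT, and from 2.63 to 0.523 and 1.96 CPM in KO. Sox4 falls in both from EpiLC to day 3 and is higher in KO at day 3 and day 5.

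Sox4, a SOXC factor (13:28948919-28953713, minus strand, a single exon), was abundant in EpiLC, with 175, 185 and 168 CPM in WT and 149, 139 and 186 CPM in KO A5, B1 and the library labelled A2. These ranges overlapped. Day 3 WT libraries had 11.6, 11.7 and 13.2 CPM, a log2 change of -3.85 ± 0.24 (adjusted p = 7.37e-09). Day 3 KO libraries had 28.0, 19.5 and 33.9 CPM, all above WT, and the change in KO was -2.53 ± 0.22 (adjusted p = 5.7e-07). Sox4 was thus 2.25-fold higher in KO at day 3 (log2 1.17 ± 0.24, adjusted p = 0.00608). At day 5 WT had 11.2, 13.0 and 9.48 CPM and KO 41.1, 20.7 and 38.6 CPM, 2.96-fold higher (1.56 ± 0.24, adjusted p = 0.000325). Line B1 was the lowest KO line at every stage and still lay above WT in PGCLC. Both calls held under all 12 alternatives for each. The smaller fall in KO was itself called, with an interaction of 1.32 ± 0.31 (adjusted p = 0.021), but not without EpiLC WT 2 (0.0535), day 3 WT 1 (0.0525), day 3 WT 2 (0.0613) or day 3 KO A2 (0.0508). A noncoding gene on the opposite strand, Gm26735, overlaps 54.6% of Sox4's exon bases, so reads of the pair cannot be told apart if counting ignored strand. The 11 formative epiblast markers summed to 819.8 to 1043 CPM in day 3 KO against 710.5 to 775 CPM in WT. At day 5 they summed to 939.5 to 1055 CPM in KO against 736.1 to 826.8 CPM in WT. Of these, 2 were called higher at day 3 (list median 0.17) and 3 at day 5 (0.56), beside 5.00% and 9.83% of all tested genes. None was called lower. In EpiLC, where Sox4 ranges overlapped, the sum was instead lower in KO (2120 to 4497 CPM against 5797 to 5914 CPM in WT). The 11 naive pluripotency markers, Esrrb among them, summed to 1520 to 1667 CPM in day 3 KO against 2892 to 3022 CPM in WT, and to 1479 to 2161 CPM in day 5 KO against 2712 to 2850 CPM in WT. None of these markers was at 0 in all libraries of a PGCLC group, neither pair of ranges overlapped at either time, and their part in the results for Sox4, Nes and the other genes was not tested.

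Pax6, a paired-box factor of forebrain and eye progenitors (2:105668900-105697364), was scarce in every group. WT EpiLC libraries held 18, 16 and 15 counts (4.72, 3.95 and 3.91 CPM) and KO EpiLC libraries 7, 19 and 13 counts in the order A5, B1 and the library labelled A2. Day 3 libraries held 0 to 2 counts in both genotypes, 19.3-fold below EpiLC in WT (95% counting interval 6.24 to 97, adjusted p = 5.4e-05) and 12-fold below it in KO (3.82 to 60.8, adjusted p = 0.000707). Counts came back at day 5, to 6, 7 and 3 in WT and 20, 12 and 18 in KO. The day 5 KO level was 14-fold above day 3 KO (4.52 to 70.2, adjusted p = 0.0238). That call was lost without day 3 KO A5 (0.0563), day 3 KO B1 (0.109) or day 5 KO A5 (0.0623). In WT, day 5 was 5.17-fold above day 3 (1.48 to 27.7, adjusted p = 0.171). At day 5 every KO library (4.75, 2.58 and 3.68 CPM) lay above every WT library (1.21, 1.40 and 0.694 CPM), a difference of 1.69 ± 0.49 (adjusted p = 0.0253). This call was lost without WT 1 (0.0717), WT 2 (0.0523), WT 3 (0.103), KO A5 (0.0735) or KO A2 (0.0581).

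Nes encodes nestin, an intermediate filament protein of neural stem cells (3:87971078-87980451). In WT EpiLC it had 88.3, 88.9 and 88.2 CPM, and in KO EpiLC 162, 237 and 195 CPM in A5, B1 and the library labelled A2. It was 2.24-fold higher in KO (log2 1.16 ± 0.18, adjusted p = 0.00395), and as high without the library labelled A2 (1.17, adjusted p = 0.00361). At day 3 WT had 36.7, 37.7 and 37.3 CPM and KO 56.0, 70.8 and 66.5 CPM, with no overlap (0.79 ± 0.19, adjusted p = 0.0161). That call was lost without WT 1 (0.0597), WT 2 (0.0588), WT 3 (0.0566), KO B1 (0.0605) or line A2 (0.0647). At day 5 the ranges overlapped, with 48.0, 57.9 and 35.4 CPM in WT and 47.3, 76.4 and 75.4 CPM in KO (0.49 ± 0.19, adjusted p = 0.0823). Here the threshold was passed without WT 2 (0.0466) or KO A5 (0.0139). From EpiLC to day 3, Nes fell in WT (-1.25 ± 0.19, adjusted p = 4.9e-05) and in KO (-1.62 ± 0.19, adjusted p = 7.32e-06), and it had the highest level per length of the 9 genes in each PGCLC group, 5.80 to 10.3 CPM per kb.

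Fabp7, the brain fatty acid-binding protein of radial glia (10:57784881-57788450), was read only in EpiLC. WT EpiLC libraries held 11, 16 and 15 counts, and KO EpiLC libraries 17 in A5, 23 in B1 and 0 in the library labelled A2. All 12 PGCLC libraries held 0 counts, which allows a level of up to 0.21 to 0.26 CPM per group (3 counts over the group). Fabp7 was at least 16.6-fold lower at day 3 than in EpiLC in WT and at least 12.3-fold lower in KO. The edgeR calls (adjusted p = 0.0112 in WT and 0.0235 in KO) were lost with DESeq2 (0.205 and 0.27). In KO they were also lost without EpiLC KO A5 (0.0534), EpiLC KO B1 (0.0607) or day 3 KO A5 (0.0588).

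Mtap2 encodes the microtubule-associated protein MAP2 of dendrites (1:66175273-66442583). It was the member with the latest fall in WT: 27.8, 16.3 and 22.4 CPM in EpiLC, 18.1, 13.0 and 18.4 CPM at day 3 and 6.83, 5.41 and 4.86 CPM at day 5. EpiLC and day 3 overlapped (adjusted p = 0.247). Day 5 lay below day 3 in WT (-1.52 ± 0.34, adjusted p = 0.0486), a call at the edge of the threshold that was lost on leaving out any 1 of the 6 libraries (adjusted p 0.0984 to 0.19). In KO it had 16.1, 16.5 and 13.2 CPM at day 3 and 12.6, 9.69 and 14.9 CPM at day 5 (adjusted p = 0.789 for the step). At day 5 all KO libraries lay above WT (1.11 ± 0.35, adjusted p = 0.0349). This call was lost without WT 1 (0.0591), WT 2 (0.103), WT 3 (0.119), KO A5 (0.0645) or KO A2 (0.132). Genes on chromosome 1 had a median log2 ratio to the WT mean of 0.28 to 0.31 in line A2 at the 3 stages, against -0.021 to 0.043 in A5 and B1. Without line A2 the day 5 difference of Mtap2 was 0.95 (adjusted p = 0.0186).

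Ncam1, a neural cell adhesion molecule (9:49502136-49798925, minus strand), had 7.60, 6.92 and 7.82 CPM in WT EpiLC and 10.4 and 7.81 CPM in KO A5 and B1. The library labelled KO A2 had 85.2 CPM (358 counts). The KO against WT difference in EpiLC (2.21 ± 0.67, adjusted p = 0.0469) rested on that library: without it the difference was 0.30 (adjusted p = 0.675). The call was also lost without WT 1 (0.126), WT 2 (0.135) or WT 3 (0.125). At day 3 every KO library (1.09, 0.662 and 0.510 CPM, from 5, 2 and 2 counts) lay below every WT library (2.17, 3.58 and 2.96 CPM). The adjusted p of this difference was 0.314. That difference was called without line A2 (-1.67, adjusted p = 0.017). At day 5 the ranges overlapped. From EpiLC to day 3 Ncam1 fell in KO (-5.43 ± 0.92, adjusted p = 0.000256), and the value was -3.51 without the library labelled A2 (adjusted p = 1.43e-05). In WT the ranges did not overlap either, but the adjusted p was 0.157 (-1.33 ± 0.78). It was 0.0253 with the WT number and KO line as a block and 0.000137 without line A2. Leaving out line A2 changes the spread used for this WT step, not the libraries compared. The difference between the steps, -4.09 ± 1.27, did not pass the threshold (adjusted p = 0.0631). It passed with the same block (-3.72, adjusted p = 0.0139), with DESeq2 (0.00563), and without EpiLC KO A5 (0.0263), EpiLC KO B1 (0.0152) or the library labelled EpiLC KO A2 (-2.18, 0.0438).

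Counted over the 9 genes, KO against WT called 2 in EpiLC (Nes and Ncam1 higher), against 11.1% of all tested genes (6.93% higher and 4.15% lower). A second comparison, among PGCLC sorted at day 3, called 3 members (Sox4 and Nes higher, Sox21 lower), against 10.2% (5.00% higher and 5.18% lower). Among PGCLC sorted at day 5 it called 4 (Sox4, Pax6 and Mtap2 higher, Sox21 lower), against 17.5% (9.83% higher and 7.62% lower). Without line A2 the 3 counts were 1, 3 and 6: Ncam1 was no longer called in EpiLC, Ncam1 replaced Nes at day 3, and Sox1 and Sox3 were added at day 5. In that fit the share of all tested genes called rose too, to 20.9% at day 3 and 30% at day 5. Libraries of KO and WT did not overlap for 2, 4 and 5 of the 9 genes, against 32.3%, 36.6% and 41.1% of all tested genes. The median of the members' log2 fold changes was 0.03 (EpiLC), 0.24 (day 3) and 0.49 (day 5), beside 0.01 over all tested genes in each comparison. The 3 comparisons use separate libraries, but the KO lines recur. Day 5 against day 3 called 1 member in WT (Mtap2), against 0.770% of all tested genes (0.288% higher and 0.482% lower), and 1 in KO (Pax6), against 0.552% (0.366% higher and 0.187% lower). The interaction with the EpiLC to day 3 step called Sox21 and Sox4, against 6.59% (2.96% higher and 3.63% lower). The interaction with the day 3 to day 5 step called 0 of the 12856 genes with edgeR (561 at an unadjusted p under 0.05), 11 with DESeq2 and 0 with limma. Mtap2 was the only member at an unadjusted p under 0.05 there (1.22 ± 0.47, unadjusted p = 0.0187).

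**Figure D3:**
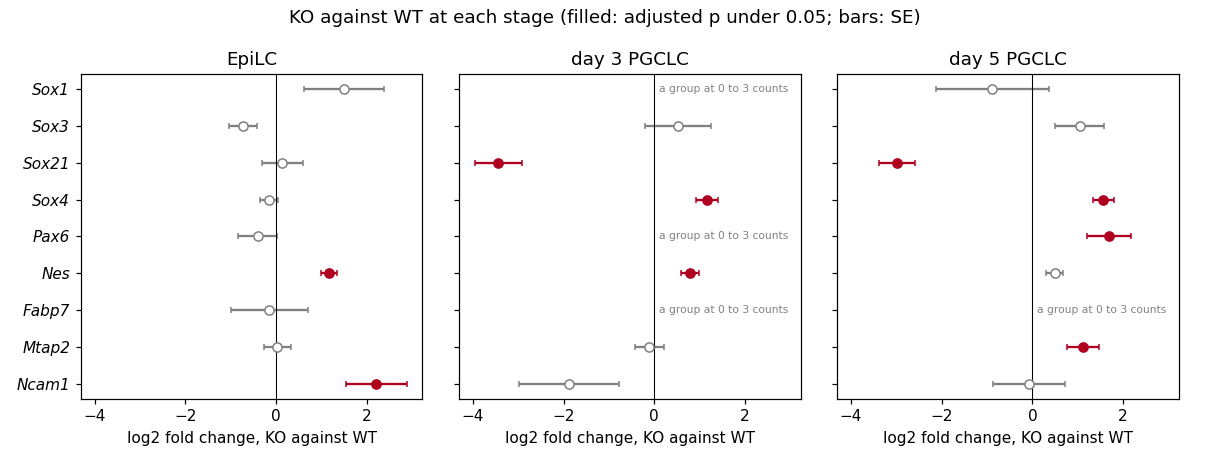
Log2 fold change of KO against WT for each gene in EpiLC, day 3 PGCLC and day 5 PGCLC (x axis, bars are standard errors; filled points passed an adjusted p of 0.05). Sox21 lies near -3 at both PGCLC times and near 0 in EpiLC, Sox4 is above 0 at both PGCLC times, and no value is drawn where a group held 0 to 3 counts.

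Set side by side per length of annotated exon (GENCODE M21), the order of the genes changed along the route. In WT EpiLC Sox3 (43.1 CPM per kb) and Sox4 (36.7) stood above Nes (13.8), and Sox21 (0.628) was the lowest but for Pax6 (0.359). In WT day 5 PGCLC Sox21 (4.07 CPM per kb) was second only to Nes (7.34) and above Sox4 (2.35), with the other members at or below 0.854. In KO day 5 PGCLC Sox21 stood at 0.516 CPM per kb, below Nes (10.3), Sox4 (6.98), Sox3 (1.78) and Mtap2 (0.754).

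**Figure D4:**
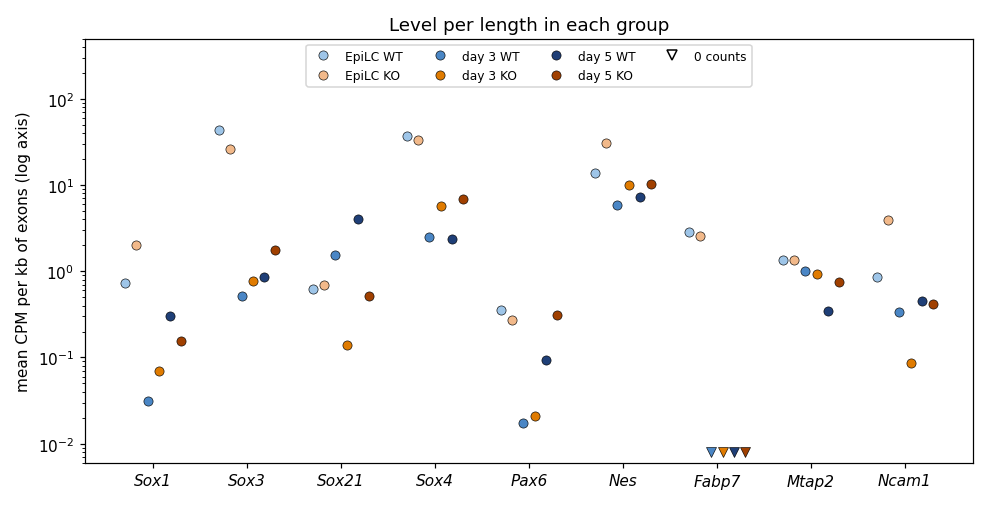
Mean level per kb of exon of each gene in the 6 groups (y axis, CPM per kb on a log scale; triangles at the foot mark groups with 0 counts). Sox3 and Sox4 drop by more than a factor of 10 from WT EpiLC to WT PGCLC, and Sox21 is the gene with its highest point in day 5 WT.

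Over the 18 libraries, log2 levels of Sox3 and Sox4 ran together (Pearson r = 0.93), as did those of Sox3 and Fabp7 (0.91), whereas Sox21 had r = -0.41 with Sox4 and -0.58 with Mtap2. These values describe libraries that share 6 groups and carry no test. The genes most like Sox21 were Smyd1 (r = 0.94), Sema5a (0.94) and Plbd2 (0.93). Those most like Sox4 were Pgrmc1 (0.99), Slc7a7 (0.98) and Bend3 (0.98), those most like Sox3 were Dnmt3a (0.98), Exosc1 (0.98) and Pfn1 (0.98), and those most like Nes were Ptpn9 (0.96), Chpf2 (0.92) and Mtap6 (0.92). For Ncam1 the nearest was Col5a2 (0.97), a collagen gene, and for Pax6 it was Tshz3 (0.95). Ncam1 had 85.2 CPM in the library labelled EpiLC KO A2 and at most 10.4 CPM in any other. The part of that library in the Ncam1 correlation was not tested.

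Other genes of the neural programme, taken from 6 lists, moved in both directions. In the EpiLC to day 3 step in WT, 14 of 21 tested neuronal structure genes fell and 2 rose, 13 of 19 neural stem cell and radial glia genes fell and 4 rose, 8 of 17 neural plate and progenitor transcription factors fell and 3 rose, and 9 of 17 proneural and Notch genes fell and 6 rose, beside 28.5% of all tested genes lower and 29.0% higher. The 2 structure genes that rose became 1 on leaving out EpiLC WT 1, 2 or 3 or day 3 WT 1 or 3. The proneural factors Neurod1 (-6.78 ± 0.55, from 26.9 to 0.224 CPM) and Insm1 (-6.22 ± 0.42, from 45.1 to 0.572 CPM) fell furthest in the last list. Among 6 tested SOX relatives, Sox11, the SOXC partner of Sox4, fell by 3.94 (SE 0.38) and Sox2 rose by 2.54 (SE 0.17), from 175 to 1016 CPM. Dner, a transmembrane protein that binds Notch, rose by 5.75 (SE 0.66), from 0.512 to 29.1 CPM.

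In EpiLC, KO against WT called 3 of 17 proneural and Notch genes higher, Id1, Jag1 and Notch1, beside 6.93% of all tested genes, and all 3 calls were lost on leaving out any 1 WT library. At day 3 it called 4 of 17 proneural and Notch genes higher and 1 lower, and 1 of 21 neuronal structure genes higher and 2 lower. Among the 4 were Jag1 and the inhibitors of proneural factors Id1 and Id3, so the count does not show proneural factors rising. Over all tested genes 5.00% were higher and 5.18% lower, and the counts of the structure genes lie near those shares. The list medians at day 3 were 0.46 and -0.30, against 0.01 over all tested genes. The count of 4 was 1 without WT 2 and 2 without WT 3 or KO B1, and the 2 lower structure genes were 1 without WT 2, KO B1 or KO A2 and 6 without line A2. The fit without line A2 called 20.9% of all tested genes at day 3, in either direction. Id1, an inhibitor of proneural factors and a BMP target, rose by 2.14 ± 0.31 (176 against 39.9 CPM). Notch1 fell by 1.16 (SE 0.16, 79.6 against 178 CPM), and its step from EpiLC also differed from WT (interaction -1.84 ± 0.22, adjusted p = 0.00031). Dner fell by 4.65 (SE 0.59, 1.13 against 29.1 CPM). Gap43, a growth cone protein, rose by 2.72 ± 0.46 (14.3 against 2.21 CPM). These 4 calls held under every alternative tried. Sox2 fell by 0.66 (SE 0.16, 644 against 1016 CPM), a call lost without WT 1, WT 3 or KO B1 (highest adjusted p 0.0771).

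At day 5, 6 of 17 proneural and Notch genes were higher in KO and 1 lower, and 5 of 21 neuronal structure genes were higher and 1 lower (the lower one was not called without WT 1, WT 2, KO A5 or KO B1). Among the 6 were Id1, Id2 and Id3, inhibitors of proneural factors, and Jag1, so the count does not show proneural factors rising. The Id2 call was lost in 6 alternatives (highest adjusted p 0.219). Of 14 neural inducers and BMP antagonists, 4 were higher. Over all tested genes 9.83% were higher and 7.62% lower. The medians of these 3 lists were 0.83, 0.26 and 0.96. Of 17 neural plate and progenitor transcription factors, 1 was higher and 3 were lower, with a list median of 0.33. The 1 became 0 without WT 1, WT 2, WT 3, KO B1 or KO A2, 2 without KO A5 and 5 without line A2, and the 3 became 1 without WT 1, WT 2, WT 3 or KO A2. The fit without line A2 called 30% of all tested genes at day 5, in either direction. Gap43 (5.12 ± 0.59, 15.5 against 0.412 CPM), Dpysl3 (0.95 ± 0.19) and Map1b (0.91 ± 0.17, 103 against 54.9 CPM), all proteins of growing axons, rose, as did Id1 (2.02 ± 0.30), Id3 (1.63 ± 0.34) and the Notch ligand Jag1 (0.95 ± 0.18). Lefty1 (3.62 ± 0.83, 113 against 9.20 CPM) and Fstl1 (2.63 ± 0.47, 87.4 against 14.2 CPM), secreted inhibitors of TGF-beta family signals, rose, and Dner fell by 3.09 (SE 0.56). These calls held under every alternative tried. Among neural stem cell and radial glia genes 4 of 19 were higher and 3 lower. The 4 became 1 without WT 1 or WT 3 and 2 without WT 2 or KO A2, and the 3 became 1 without WT 2 or KO A2. Sox11 rose beside Sox4 (1.77 ± 0.43, 6.37 against 1.81 CPM), a call lost when only the 2 groups were fitted (adjusted p = 0.0522). The neural plate factor En2 fell by 1.74 (SE 0.44, 2.80 against 9.34 CPM), and without WT 1 its adjusted p was 0.0508. Summed mesenchyme markers were 1227, 1388 and 1650 CPM in day 3 KO A5, B1 and A2, against 1183 to 1272 CPM in WT. At day 5 they were 1168, 1339 and 2365 CPM in the same order, against 1183 to 1254 CPM in WT. The highest value was that of line A2 at both times, and the A5 value did not exceed the WT range. Col1a2, Col3a1 and Twist2 were at 0 counts in all WT PGCLC libraries and none of the 10 markers was at 0 in all KO libraries of a time. Their part in these results was not tested.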

How the data were processed

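RNA of 18 polyA-selected libraries was analysed, grouped by the labels. The libraries called day 5 here are called day 6 in some descriptions, and line A2 is called KO2 in titles. The deposited values are raw counts per gene and, for the whole series, deposited CPM, which equal counts per library total. The submitters' processing notes name Trim Galore 0.4.3.1 and the builds mm10 and GRCm38.p4. How reads were aligned and counted, and with which gene models or strand option, is not given in the sources used here. Rows with no gene ID (56, 0.0559% to 0.0828% of counts) were left out.

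Counts were tested in R 4.3.3 with edgeR 4.0.16 (filterByExpr, TMM factors 0.964 to 1.04, robust quasi-likelihood, a mean per group over all 18 libraries), in 9 comparisons, with Benjamini-Hochberg adjustment over 12856 genes and a threshold of 0.05. Standard errors are the log2 fold change over the root of F. Alternatives were RLE, no filter, DESeq2 1.42.0, limma-trend (limma 3.58.1) on log2 of deposited CPM plus 1, a fit of the compared groups alone, each library or line A2 left out, and a replicate block. Deviations from group means correlated for KO libraries of the same line (9 of 9 pairs, r 0.11 to 0.588) and not for WT numbers (-0.0479 to 0.0659), so line names pair the KO libraries.

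The members and lists were chosen with earlier results of these data known. Named genes are the members, up to 4 genes per list and comparison with the largest called change and at least 5 CPM, the 3 most correlated genes of a member, and Esrrb. Positions, lengths and overlaps are from GENCODE M21 (GRCm38) and promoters from RefSeq.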

Additional observations from a re-analysis of the deposited data

Results flagged for a closer look

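Sox21 and Sox4 were singled out because their change from EpiLC to day 3 PGCLC differed between KO and WT by a test of the difference itself (edgeR's interaction term). For Sox21 the KO step lay below the WT step by 3.57 on the log2 scale (-3.57 ± 0.71, adjusted p = 0.00896): it rose in 3 of 3 WT libraries relative to every WT EpiLC library, and in KO all 3 day 3 libraries lay below every EpiLC library. For Sox4 the KO step exceeded the WT step by 1.32 ± 0.31 (adjusted p = 0.021), with all 3 KO libraries above all 3 WT libraries at day 3 and overlapping ranges in EpiLC.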

How the results depend on the processing

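Over 35 member results with an unadjusted p under 0.05 and 468 alternative values from 25 settings, 402 kept the direction and side of the threshold, 52 lost the threshold, 14 gained it and 0 reversed. Results chosen at that p leave little room for a reversed sign. Calls gained by other member results, such as Sox1 and Sox3 at day 5 without line A2, are not among the 14. Of 28 calls, 14 held in all alternatives run, among them KO against WT for Sox21 and Sox4 at day 3 and day 5 and the Sox21 interaction. The number of members called in EpiLC (2) was 1 without the filter on low counts, 1 with limma-trend, 0 with only the groups compared, 1 without line A2 and 1 to 3 on leaving out single libraries. At day 5 (4) it was 2 to 4 on leaving out single libraries. For the KO step from EpiLC to day 3 (8) it was 5 with only the groups compared. For day 5 against day 3 in WT (1) it was 0 without the filter, 2 with DESeq2, 5 with only the groups compared, 3 without line A2 and 0 on leaving out any library. In KO (1) it was 0 with only the groups compared and 0 to 1 on leaving out single libraries. For the interaction with the first step (2) it was 1 to 3 on leaving out single libraries. The cause was not tested. Nes in EpiLC passed the threshold in every alternative but the fit of only the groups compared (adjusted p = 0.0783), and in KO the fall of Sox1 from EpiLC to day 3 likewise (0.0605). The fall of Sox21 in KO was lost in that fit (0.0623) and without line A2 (0.0718). The share of all tested genes called ran from 0% to 19% for KO against WT in EpiLC (11.1%), from 4.86% to 20.9% at day 3 (10.2%), from 10.2% to 30% at day 5 (17.5%), from 0.0778% to 29.1% for day 5 against day 3 in WT (0.77%), from 0% to 6.84% in KO (0.552%), from 17.1% to 57.2% for the KO step (42%) and from 2.85% to 14.7% for the first interaction (6.59%). Of 1512 counts of called pathway genes under alternatives, 1256 stayed within 1.5 times the main count.

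With the replicate name as a block, which the KO lines support and the WT numbers do not, 2 members were called for day 5 against day 3 in WT, Sox21 (1.38, adjusted p = 0.0409) joining Mtap2, and Ncam1 was called in the first interaction (adjusted p = 0.0139). In the EpiLC to day 3 step in WT, Ncam1 was called with the block (adjusted p = 0.0253). The block changed no other member call in the steps and interactions, and it cannot be fitted for KO against WT, since names do not recur across genotypes. Depth limits Sox1, Pax6, Fabp7 and Sox21 in KO, whose libraries held 0 to 20 counts in PGCLC. It also limits Sox3, with 2 to 20 counts in PGCLC libraries, and Ncam1, with 2 to 5 counts in day 3 KO libraries.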
